A study of Mus musculus with 6 samples.

Results

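A set of 10 genes known for their response to glucocorticoid hormone or to free metal was followed across the cell classes of mouse lung: Tsc22d3, Fkbp5, Per1, Zbtb16, Sgk1, Klf9, Mt1, Mt2, Hif3a and Sult1a1. They were chosen by name, with earlier results of these data known, and all 10 were found among the 32285 features of the count tables. Single-cell RNA sequencing had been done on non-haematopoietic (niche) cells in 6 libraries. Normal lungs gave Control 1, 2 and 3. Lungs invaded by an acute myeloid leukaemia (AML) that carried Trp53 R172H/Δ gave AML 1, 2 and 3. All lungs were digested with Liberase and DNaseI and the niche cells sorted, and leukaemia cells sorted for GFP were then added back to the AML suspensions only, at 20% to 80% niche cells. How the leukaemia was raised, and the strain, age and sex of the mice, are not given in the sources used here. Nor is it said whether each library is from another mouse, so the p-values take in no more than the spread among the libraries at hand, which may be technical.

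Glucocorticoids pass into the cell and bind the receptor encoded by Nr3c1, which is held ready by the Hsp90 chaperone and its partners. The bound receptor enters the nucleus and switches on a core set of genes in most tissues, and the lung is among its classical targets. Tsc22d3 encodes GILZ, a mediator of the anti-inflammatory action. Fkbp5 encodes an Hsp90 partner that lowers the receptor's affinity for hormone and so closes a feedback loop. Per1 is a clock gene, Zbtb16 and Klf9 encode transcription factors, Sgk1 a kinase that controls ion transport, Hif3a a subunit of the hypoxia-inducible factor family and Sult1a1 a sulfotransferase of phenols. Mt1 and Mt2 encode metallothioneins, small cysteine-rich proteins that bind zinc and copper. They are induced by free metal through the factor Mtf1 and also by glucocorticoids, oxidants and inflammatory signals.

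The tables held 28516 cell barcodes and between 19060359 and 26789176 unique molecular identifiers (UMIs, counted transcripts) per Control library, against 39919902 to 46018541 per AML library. After filters 23745 cells were used. Control 1 stood apart in having the fewest cells (1718) and the most UMIs per cell (median 8323.5, against 3723 to 5504 in the other libraries). Any pair of libraries shared at most 20 cell barcodes. Clusters were named from marker genes into 20 classes, which means only that a class resembles that cell type, and the classes may differ from those of the study. Clusters that failed the naming rule held 508, 822 and 1102 cells in the Controls against 974, 52 and 262 in the AML libraries. One of them, led by haemoglobin and secretory genes, held 463 cells, all of Control 3. Clusters of 1014, 752, 583, 264 and 342 cells scored highest for general capillary markers but stayed unnamed. Only 24, 3, 5, 17 and 3 of these cells, in that order, were of AML 2. They are not part of the general capillary class below. The 9 non-haematopoietic classes with at least 20 cells in every library were compared: general capillary, aerocyte, venous and arterial endothelium, alveolar type 2 and ciliated epithelium, alveolar fibroblast, alveolar duct myofibroblast and smooth muscle. In every compared class all markers of the class had UMIs in all 6 libraries. UMIs were summed per class and library, and values below are counts per 1000000 UMIs of that sum (CPM, scaled by TMM within the class) unless stated otherwise.

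Of the 77 member and class pairs with enough UMIs to test, 9 passed the threshold (edgeR quasi-likelihood test, Benjamini-Hochberg adjusted p below 0.05 over all genes of the class), 6 of them higher and 3 lower in AML. Alveolar type 2 cells had 3 of 10 tested members past it, with Hif3a and Mt1 higher and Tsc22d3 lower, where 4.37% of all tested genes passed. In general capillary cells 2 of 10 passed, Hif3a higher and Zbtb16 lower, against 3.52% of genes. Smooth muscle had 2 of 9, Mt1 and Mt2, both higher, against 1.08%. Arterial cells had 1 of 9, Mt2, higher, against 0.323%. Alveolar fibroblasts had 1 of 9, Fkbp5, lower, against 3.74%. No member passed in aerocytes (0 of 8, against 3.28% of genes), alveolar duct myofibroblasts (0 of 8, 1.23%), ciliated cells (0 of 6, 0.616%) or venous cells (0 of 8, 0.451%). Together these 9 were 11.7% of the tested pairs, against 2.19% of all genes when each class is weighted by its number of tested members. At an unadjusted p below 0.05, 31 of the 77 pairs were found (40.3%), against 15.3% of all genes with the same weights and 15.8% of all 66908 gene and class pairs. The members and the gene lists used below were chosen with earlier results of these data known. An excess over all genes is therefore a description and no independent evidence. Of the 31, 4 lay in aerocytes, 2 in alveolar duct myofibroblasts, 2 in ciliated cells and 1 in venous cells. DESeq2 called 14 of the pairs, 8 of them among the 9. The number of calls rested on single libraries. Leaving out Control 1 gave 2 calls, Control 3 gave 4, AML 1 gave 23, AML 2 gave 3 and AML 3 gave 2.

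**Figure D1:**
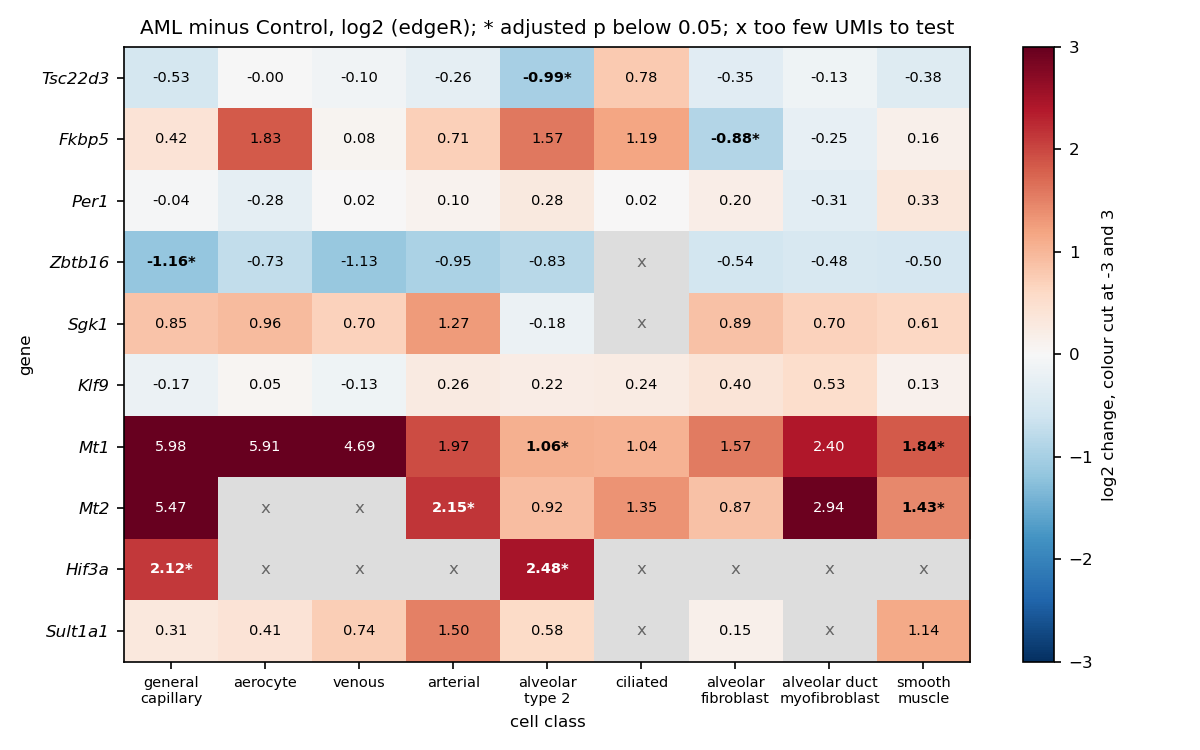
Log2 change of each member (rows) in each cell class (columns), AML minus Control, from the edgeR fit, with red above and blue below 0, an asterisk at an adjusted p below 0.05 and a cross where UMIs were too few. The row of Mt1 is red in all 9 classes and the row of Zbtb16 blue in the 8 classes where it was tested, while the 9 called cells are spread over 6 genes and 5 classes.

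The metallothionein genes Mt1 and Mt2 had the widest range of all members across classes. They lie next to each other on chromosome 8 in the mm10 build, both on the plus strand. Mt2 spans chr8:94172664-94173568 and Mt1 chr8:94179082-94180327, with 5513 bases between them (GENCODE M21). The 250 bases before each RefSeq start (GRCm38.p6) are shown because both genes are read by the same metal-sensing factor. Capitals mark the core of the metal response element (TGCACNC or TGCGCNC, either strand) and, in Mt1, also a relaxed glucocorticoid response element (ACA, any 3 bases and TGT, with a G before and a C after them at a distance of 1 base, which reads alike on both strands).
Mt2, chr8:94172368-94172617, plus strand: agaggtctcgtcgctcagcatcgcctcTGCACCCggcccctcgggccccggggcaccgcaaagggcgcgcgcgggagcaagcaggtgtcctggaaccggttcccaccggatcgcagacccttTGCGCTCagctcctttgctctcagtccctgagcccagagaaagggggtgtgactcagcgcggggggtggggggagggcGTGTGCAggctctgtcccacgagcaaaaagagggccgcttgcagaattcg
Mt1, chr8:94178839-94179088, plus strand: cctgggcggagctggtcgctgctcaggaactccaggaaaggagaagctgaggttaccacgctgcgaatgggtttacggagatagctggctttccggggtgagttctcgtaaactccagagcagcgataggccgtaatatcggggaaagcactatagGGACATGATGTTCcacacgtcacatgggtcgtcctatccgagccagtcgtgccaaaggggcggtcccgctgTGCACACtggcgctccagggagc
The Mt2 window held 3 metal response cores, 2 forward and 1 reverse, and the Mt1 window 1. Of 32851 mouse promoter windows of this length, 21.406% held at least 1 such core and 0.387% the relaxed glucocorticoid element. These matches are letters only. Sequence outside the windows, on either side, was not searched, so the counts are those of the windows and not of the whole promoters.

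In Control lungs Mt1 set the classes far apart. On plain CPM, without the scaling within a class, ciliated cells (mean 1632), smooth muscle (1208), alveolar fibroblasts (879) and alveolar duct myofibroblasts (701) overlapped each neighbour in this order. Below a gap came arterial cells (160) and alveolar type 2 cells (130), and below another venous cells (11.5), general capillary cells (5.97) and aerocytes (1.78). Mt2 kept a like order, with alveolar fibroblasts (245), smooth muscle (238), ciliated cells (165) and alveolar duct myofibroblasts (94.3) above arterial cells (37.1) and alveolar type 2 cells (11.2). The capillary and venous classes lay at or under 1.86 CPM. Over the 54 class-by-library sums the log2(CPM + 1) levels of Mt1 and Mt2 had Pearson's r = 0.968. The sums of a library share its cells, depth and preparation, so this is a description.

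Smooth muscle gave the plainest difference of Mt1. Its level was 1221, 1490 and 1040 CPM in Control 1, 2 and 3, and 2593, 5800 and 5069 in AML 1, 2 and 3. All AML libraries lay above all Controls, at a log2 change of 1.84 ± 0.30 (SE, edgeR adjusted p = 0.000581). The call held without each library in turn except without Control 1 (log2 change 1.82, adjusted p = 0.109). Mt2 measured 333, 215 and 184 CPM against 375, 595 and 1005, again with no overlap, and rose by 1.43 ± 0.33 on the log2 scale (edgeR adjusted p = 0.025). Its adjusted p was 0.0768 with Control 1 left out, 0.144 with Control 2, 0.165 with Control 3 and 0.168 with AML 3 left out. Endothelial markers summed to 2065, 1783 and 1701 CPM in the Control smooth muscle sums and to 1147, 1344 and 1500 in the AML ones, from 31 genes of which 7 were at 0 throughout. Haematopoietic markers came to 53.0, 86.0 and 211 CPM against 6.97, 36.2 and 10.6, with 19 of 37 genes at 0 throughout, and did not overlap either. Their part in the result was not tested.

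Alveolar type 2 cells, the surfactant-making cells of the alveolus, held Mt1 at 82.6, 180 and 119 CPM in the Controls against 188, 287 and 321 in the AML libraries. The lowest AML library lay just above the highest Control, and the log2 change was 1.06 ± 0.26 (edgeR adjusted p = 0.0336). The call was lost without Control 1 (adjusted p = 0.16), Control 3 (0.0987), AML 2 (0.154) or AML 3 (0.159). Mt2 was low there, at 7.37, 17.9 and 7.43 CPM against 12, 25.8 and 24.7, with overlap, and did not pass (log2 change 0.92 ± 0.37, edgeR adjusted p = 0.196). It passed without Control 2 (log2 change 1.5, adjusted p = 0.011) and without AML 1 (1.19, 0.0289). After each cell was thinned to 2000 UMIs, 16.2%, 22.6% and 19.9% of Control and 30.5%, 34.7% and 35.7% of AML alveolar type 2 cells had an Mt1 UMI. So the shares kept the gap between the groups although the AML cells had fewer UMIs (medians of 11932 to 13649, against 18076 to 26726).

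Arterial endothelium held Mt2 at 43.6, 40.1 and 33.1 CPM in the Controls against 77.0, 213 and 230 in the AML libraries. The groups did not overlap, and Mt2 rose by 2.15 ± 0.36 on the log2 scale (edgeR adjusted p = 0.0169). The adjusted p was 0.0992 with Control 1 left out, 0.0614 with Control 3, 0.14 with AML 2 and 0.116 with AML 3 left out. Mt1 measured 110, 239 and 158 CPM against 228, 949 and 816, where AML 1 lay below Control 2, and did not pass (log2 change 1.97 ± 0.50, edgeR adjusted p = 0.166). Without AML 1 its adjusted p was 0.000498, at a log2 change of 2.38. Mesenchymal markers, a cell type rich in Mt1 and Mt2, summed to 160, 282 and 190 CPM in the Control arterial sums and to 156, 425 and 481 in AML 1, 2 and 3, over 31 genes of which 10 were at 0 throughout. Both sums were highest in the libraries where the metallothioneins were highest, and their part in the result was not tested.

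In the other endothelial classes the difference of Mt1 followed the library more than the group. General capillary cells, the main capillary type, held Mt1 at 4.13, 10.4 and 3.38 CPM in the Controls against 11.9, 991 and 154 in AML 1, 2 and 3. AML 1 lay next to Control 2 while AML 2 was about the level of a stromal class, and the difference did not pass (log2 change 5.98 ± 1.74, edgeR adjusted p = 0.13). Aerocytes, the capillary cells specialised for gas exchange, held 0.559, 4.29 and 0.571 CPM against 8.75, 322 and 87.8 (log2 change 5.91 ± 1.79, adjusted p = 0.231 with edgeR). Venous cells held 7.22, 20.8 and 6.49 CPM against 8.65, 920 and 23.8 (4.69 ± 2.23, adjusted p = 0.494 with edgeR). AML 2 was thus the highest library in all 3 classes and AML 3 the next. AML 1 lay within the Controls in venous cells and above all of them in general capillary cells and aerocytes. In those 2 classes the groups did not overlap, as for 15% and 11.2% of all tested genes, which were likewise higher in AML. Without AML 1, Mt1 passed in general capillary cells (adjusted p = 0.0102) and aerocytes (0.0119). Over all 9 classes Mt1 was highest in AML 2 in 8 and in AML 3 in 1, and Mt2 in AML 2 in 7 and in AML 3 in 2. Leaving out AML 1 raised the classes past the threshold from 2 to 8 for Mt1 and from 2 to 6 for Mt2, leaving out AML 2 left 1 for each, and leaving out Control 1 left none for either.

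**Figure D2:**
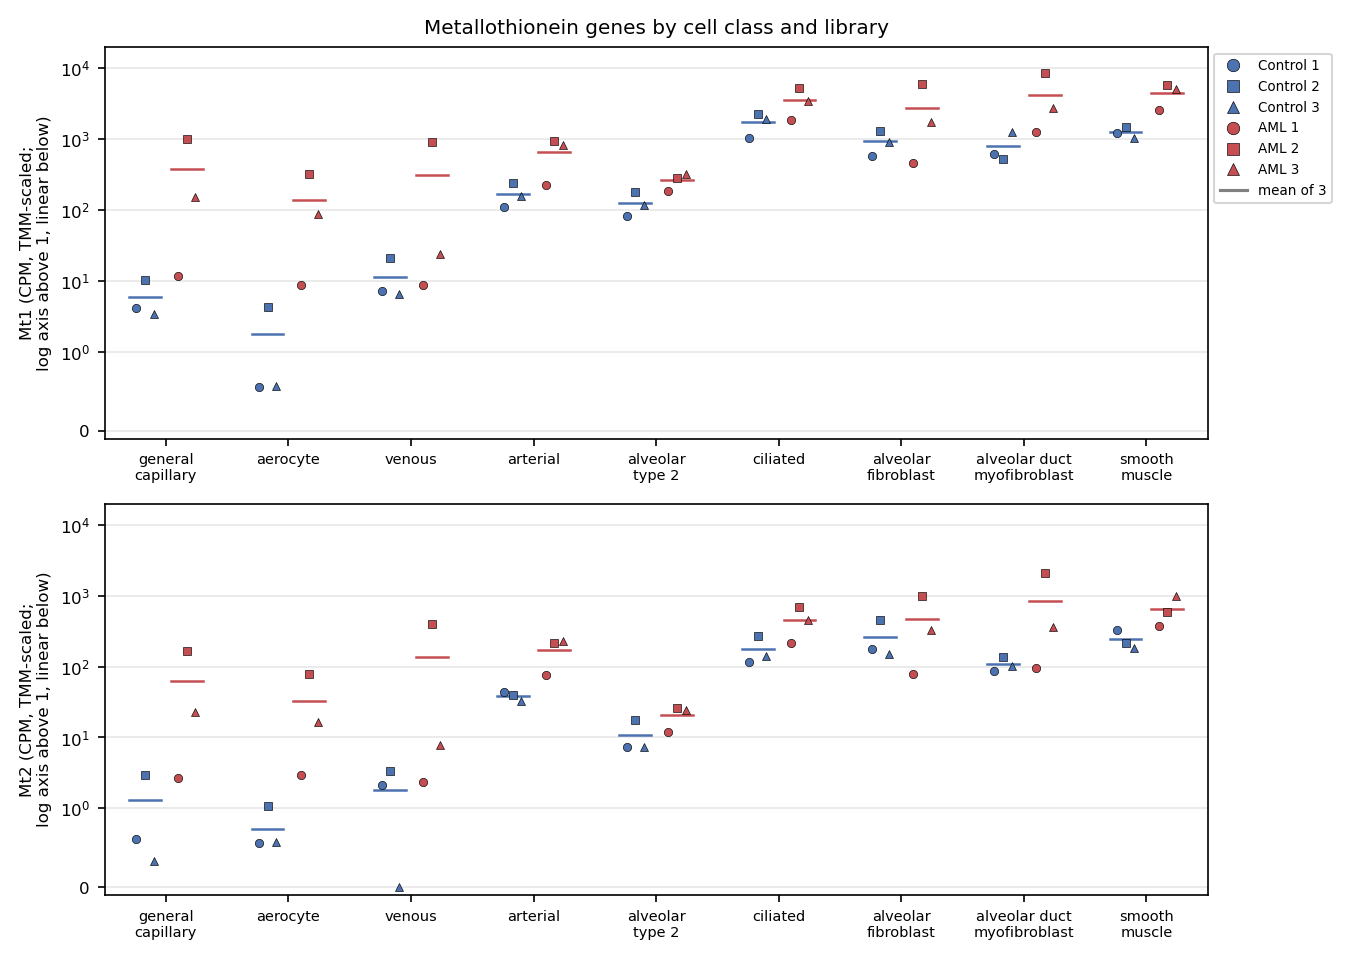
Mt1 (top) and Mt2 (bottom) in CPM by cell class, 1 point per library, with bars at the mean of 3 libraries, on an axis that is logarithmic above 1 and linear below. AML 2 (red squares) reaches 991 CPM of Mt1 in general capillary cells and 920 in venous cells, where AML 1 (red circles) lies at 11.9 and 8.65 beside the blue Controls.

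The Mt1 signal of the capillary cells was spread over many cells in AML 2. Among general capillary cells thinned to 2000 UMIs, 1.2%, 1.09% and 0.469% had an Mt1 UMI in the Controls. The shares in AML 1, 2 and 3 were 1.75% (exact 95% binomial interval 1.11 to 2.61), 36.8% (34.6 to 39.1) and 13% (11.5 to 14.6), and unthinned 2.43%, 46.1% and 15.1%. Thinning left out 25, 73 and 55 shallower cells in the Controls against 164, 317 and 733 in the AML libraries. B lymphocytes, which had little Mt1, gave 0%, 2.5% and 4.35% in AML 1, 2 and 3 (74, 40 and 46 cells) and no cell in Control 2 and 3, so the exact 95% intervals of this background ran from 0.063% to 13.2% in AML 2 and from 0.531% to 14.8% in AML 3. The share in AML 2 capillary cells lay above that interval, and those of AML 3, AML 1, Control 2 and Control 3 lay within the counting error of their background. The B lymphocytes were few and their intervals wide, so a share within them, such as the 13% of AML 3, was not shown to be background. Median depths in AML 2 were 4032 UMIs for general capillary cells and 2192 for B lymphocytes. Intervals cover counting error only. By level, B lymphocytes of AML 2 held 19.0 CPM of Mt1, and markers of haematopoietic cells in the general capillary sums came to 405 CPM in AML 2 against 550 to 690 in the Controls. Mesenchymal markers there came to 52.7 to 60.3 CPM in the Controls against 67.5, 94.0 and 104 in AML 1, 2 and 3. Epithelial markers came to 1701, 1635 and 1909 CPM against 2365, 3025 and 2563, with no overlap and in the same order of the AML libraries as Mt1. The part of either list in the Mt1 level, and in the calls of Hif3a and Zbtb16 in the same sums, was not tested.

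**Figure D3:**
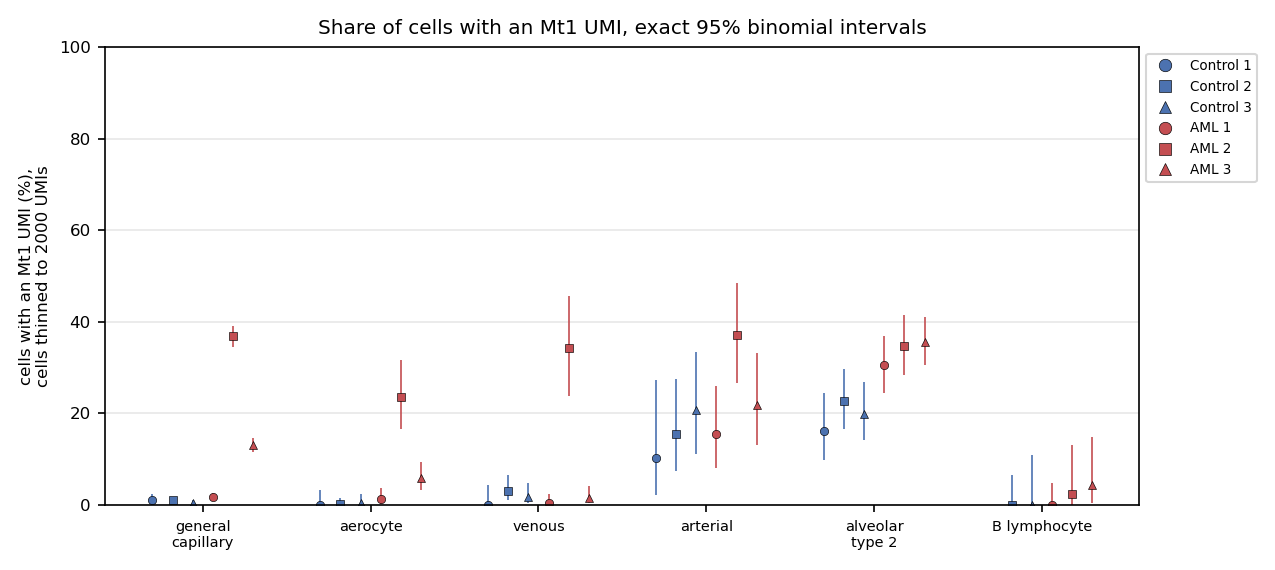
Share of cells with an Mt1 UMI, in percent, after thinning each cell to 2000 UMIs, by cell class and library, with exact 95% binomial intervals (libraries with fewer than 20 such cells left out). In general capillary cells AML 2 lies at 36.8% and AML 3 at 13%, and AML 1 at 1.75% beside the Controls.

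Different clusters made up most of the general capillary class in the groups. Cluster 6 held 366, 1181 and 861 Control cells and 703 cells of AML 1, but 19 and 41 of AML 2 and AML 3, while clusters 10 and 11 were mostly AML cells. Cluster 6 had 2 markers of the class among its top 10 genes, and clusters 10 and 11 had 0. The name of clusters 10 and 11 thus rests on the mean score of the markers alone (1.083 and 0.928, against 1.536 in cluster 6). Mt1 and Mt2 were the only members among the variable genes used for clustering. Within cluster 10, Mt1 was at 6.21 plain CPM in Control 2, 11.6 in Control 3, 10.4 in AML 1, 332 in AML 2 and 71.2 in AML 3. AML 2 was thus highest and AML 3 next, as in the whole class. Unlike there, Control 3 (32 cells in the cluster) lay above Control 2 and AML 1. Control 1 had 7 cells there, too few for a value.

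The stromal and ciliated classes already had much Mt1 in the Controls. Alveolar fibroblasts measured 581, 1308 and 920 CPM against 469, 6090 and 1729, alveolar duct myofibroblasts 622, 527 and 1271 against 1280, 8729 and 2756, and ciliated cells 1030, 2234 and 1948 against 1877, 5344 and 3506. In each, AML 2 was highest and AML 1 lay within the Controls or next to them, and none passed (log2 changes of 1.57, 2.40 and 1.04, edgeR adjusted p = 0.531, 0.247 and 0.585). Mt2 reached 986, 2078 and 693 CPM in AML 2 of the same classes, and its differences did not pass either (0.87, 2.94 and 1.35, edgeR adjusted p = 0.767, 0.394 and 0.574). Some haematopoietic classes of the AML libraries had high levels too, though B lymphocytes did not. In the classes led by erythroid and by haematopoietic progenitor markers, made up of cells of the AML libraries apart from 11 Control cells, Mt1 lay at 604, 1422 and 969 and at 494, 1080 and 788 plain CPM in AML 1, 2 and 3. AML 2 was thus again the highest and AML 1 the lowest. Leukaemia cells were added to the AML suspensions only. Whether these classes hold those cells, and the part of their RNA in the Mt1 levels of the other classes, was not tested.

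Tsc22d3, the gene of GILZ, passed the threshold in alveolar type 2 cells, where it was lower in AML, and in no other class, though its log2 change was below 0 in 8 of the 9. In alveolar type 2 cells it measured 117, 136 and 147 CPM in the Controls against 82.4, 50.1 and 67.7 in the AML libraries. Every AML library lay below every Control, from a mean of 133 ± 14.8 to 66.7 ± 16.2 CPM (SD, n = 3 each), at a log2 change of -0.99 ± 0.19 (edgeR adjusted p = 0.00685). Without AML 2 the adjusted p was 0.0739 and without AML 3 0.0668, and the other 4 single omissions kept the call. Endothelial markers in these sums came to 528, 478 and 440 CPM in the Controls against 354, 213 and 177 in the AML libraries, with no overlap, from 31 genes of which 4 were at 0 throughout. Endothelial classes held more Tsc22d3 than alveolar type 2 cells, and the part of these markers in the result, and in the calls of Mt1 and Hif3a in the same sums, was not tested. Alveolar type 2 cells were among the classes with least Tsc22d3 to begin with. Control means on plain CPM ran from 1883 and 1678 in alveolar duct myofibroblasts and alveolar fibroblasts, which overlapped, over 648, 530 and 497 in venous, aerocyte and general capillary cells, which also overlapped, and 282 in arterial cells to 159, 139 and 50.7 in smooth muscle, alveolar type 2 and ciliated cells. General capillary cells measured 378, 560 and 542 CPM against 381, 238 and 410, so that AML 1 and AML 3 lay above Control 1, and did not pass (log2 change -0.53 ± 0.25, edgeR adjusted p = 0.232). Ciliated cells were the only class with a log2 change above 0, at 42.2, 45.6 and 73.7 CPM against 115, 67.1 and 87.5 (0.78 ± 0.28, edgeR adjusted p = 0.269).

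Fkbp5, the feedback partner of the receptor, had opposite signs in different classes. In alveolar fibroblasts it measured 233, 208 and 195 CPM in the Controls against 91.5, 121 and 129 in the AML libraries. The groups did not overlap, and it fell by 0.88 ± 0.23 on the log2 scale (edgeR adjusted p = 0.0345). The call was narrow: leaving out any 1 of the 6 libraries ended it, at adjusted p-values of 0.0615, 0.0632 and 0.0976 without Control 1, 2 and 3 and 0.113, 0.104 and 0.0935 without AML 1, 2 and 3. Epithelial markers in these sums came to 405, 273 and 2080 CPM in the Controls against 537, 498 and 420 in the AML libraries, with Control 3 apart, and endothelial markers to 1277 to 2285 and 1434 to 1495 CPM. Haematopoietic markers came to 99.2, 156 and 82.1 CPM against 31.9, 77.9 and 29.9, with no overlap. The part of these markers in the result was not tested.

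In alveolar type 2 cells, aerocytes and ciliated cells, where Control levels were low, Fkbp5 leaned the other way. Alveolar type 2 cells measured 10.4, 14.4 and 4.73 CPM against 13.7, 42.5 and 33.7 (log2 change 1.57 ± 0.50, edgeR adjusted p = 0.143). Aerocytes measured 19.0, 24.3 and 5.14 against 32.1, 55.6 and 91.5, with no overlap (1.83 ± 0.52, edgeR adjusted p = 0.117), and ciliated cells 19.3, 8.68 and 16.4 against 36.7, 26.8 and 37.9 (1.19 ± 0.43, edgeR adjusted p = 0.264). None passed over all 6 libraries. Aerocytes passed without Control 3 (adjusted p = 0.0235) or AML 1 (0.0236), and alveolar type 2 cells without AML 1 (0.00138). Control 3 was the lowest library for Fkbp5 in 6 of the 9 classes. By Control level, venous cells (247 plain CPM), alveolar duct myofibroblasts (225) and alveolar fibroblasts (201) overlapped at the top, general capillary, smooth muscle and arterial cells (85.5, 81.4 and 79.9) in the middle, and aerocytes, ciliated and alveolar type 2 cells (16.2, 14.0 and 10.3) at the bottom.

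Per1, which glucocorticoids induce within the hour and which also cycles with the clock, did not pass in any of the 9 classes, nor at an unadjusted p below 0.05. Its log2 changes lay between -0.31 and 0.33, with a median of 0.02. General capillary cells, the class with most UMIs, measured 107, 77.6 and 75.1 CPM against 60.8, 95.4 and 95.3. AML 1 was the lowest library in 4 of the 9 classes and AML 2 the highest in 5. In the Controls, alveolar duct myofibroblasts (147 plain CPM) lay above all others, which overlapped from neighbour to neighbour from 87.9 in general capillary cells to 39.5 in ciliated cells.

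Zbtb16, the gene of the transcription factor PLZF, was lower in AML in all 8 classes tested by the sign of its log2 change, and passed in general capillary cells. There it measured 677, 345 and 336 CPM in the Controls against 212, 226 and 168 in the AML libraries. All Controls lay above all AML libraries, and Zbtb16 fell by 1.16 ± 0.28 on the log2 scale (edgeR adjusted p = 0.0475). Control 1 stood far above the other Controls. Without it the log2 change was -0.75 and the adjusted p 0.113, and without Control 3, AML 2 or AML 3 the adjusted p was 0.0791, 0.0912 or 0.177. Zbtb16 was highest in Control 1 in all 9 classes, and Control 1 also had the deepest cells (a median of 9851 UMIs per general capillary cell against 2807 to 5227 in the other libraries). The part of depth in the level was not tested.

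Thinning set the cells to 1 depth and left Control 1 apart. With 2000 UMIs each, 72.9%, 46.5% and 49.0% of Control and 33.2%, 33.1% and 26.6% of AML general capillary cells had a Zbtb16 UMI, where 95.4%, 76.3% and 75.6% against 49.8%, 50.2% and 35.7% had 1 unthinned. B lymphocytes gave 0% to 5%. Within cluster 6 the levels were 705, 340 and 331 plain CPM in the Controls and 199 and 210 in AML 1 and AML 3. Venous cells measured 437, 250 and 201 CPM against 138, 165 and 105 (log2 change -1.13 ± 0.30, edgeR adjusted p = 0.111), and arterial cells 425, 166 and 196 against 134, 151 and 121 (-0.95 ± 0.32, edgeR adjusted p = 0.233). Neither overlapped between the groups and neither passed. In aerocytes and alveolar type 2 cells the log2 changes were -0.73 and -0.83 (edgeR adjusted p = 0.264 and 0.214). The remaining 3, in the stromal classes, lay between -0.54 and -0.48. In the Controls 7 classes between 462 plain CPM (general capillary) and 249 (smooth muscle) overlapped from neighbour to neighbour, with alveolar type 2 (108) and ciliated cells (24.2) below.

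Klf9, the other transcription factor, passed in no class. It was highest in the stromal classes, at Control means of 1494 and 1284 plain CPM in alveolar duct myofibroblasts and alveolar fibroblasts, and lowest in alveolar type 2 (277) and ciliated cells (137). Alveolar duct myofibroblasts measured 1845, 1616 and 1661 CPM against 2072, 3045 and 2312, with no overlap and the largest log2 change of the 9 (0.53 ± 0.25, edgeR adjusted p = 0.312). In the other 8 classes the log2 changes lay between -0.17 and 0.40.

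Sgk1, the kinase, passed in no class over all 6 libraries but was highest in AML 2 in 8 of 9. General capillary cells measured 199, 233 and 213 CPM in the Controls against 242, 733 and 186 in AML 1, 2 and 3. AML 2 was apart, and AML 1 and AML 3 were level with the Controls (log2 change 0.85 ± 0.46, edgeR adjusted p = 0.302). In arterial cells the values were 165, 175 and 211 against 168, 810 and 346 (1.27 ± 0.48, edgeR adjusted p = 0.349), and in alveolar fibroblasts 204, 191 and 171 against 113, 640 and 275 (0.89 ± 0.57, edgeR adjusted p = 0.506). Aerocytes were the class where all AML libraries lay above all Controls, at 149, 218 and 200 against 230, 566 and 314 (0.96 ± 0.28, edgeR adjusted p = 0.0745). Without AML 1, Sgk1 passed in aerocytes (adjusted p = 0.0223) and arterial cells (0.0158). The share of thinned general capillary cells with an Sgk1 UMI was 26.5%, 27.6% and 26.7% in the Controls against 31.7%, 60.7% and 26.4% in the AML libraries, against 0% to 4.35% in B lymphocytes. AML 2 thus stood apart in most classes for Sgk1 as for Mt1 and Mt2.

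**Figure D4:**
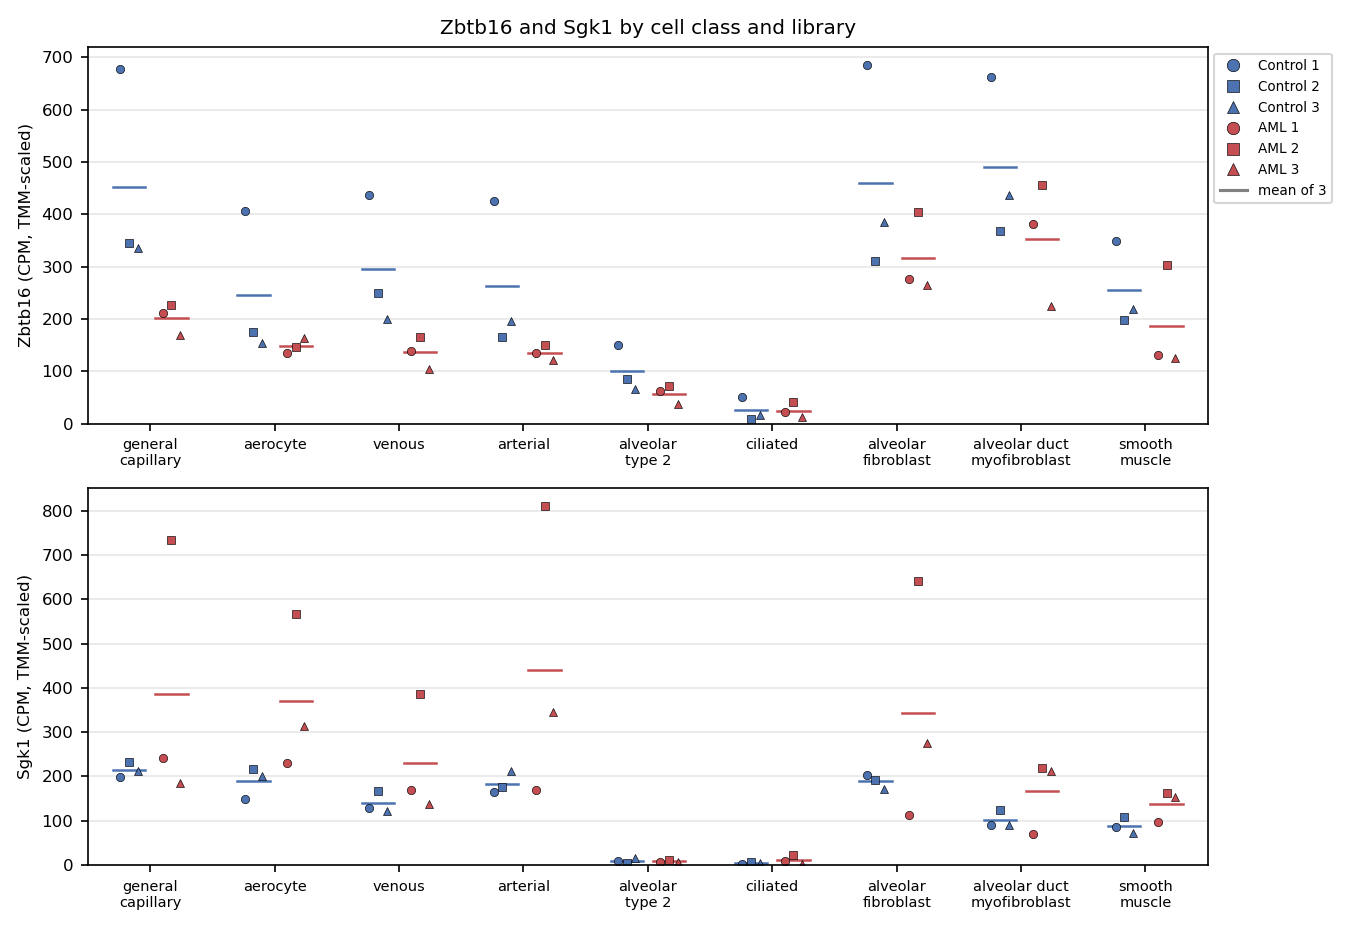
Zbtb16 (top) and Sgk1 (bottom) in CPM by cell class, 1 point per library, with bars at the mean of 3 libraries. Control 1 (blue circles) is the highest point for Zbtb16 in every class, with 677 CPM in general capillary cells, and AML 2 (red squares) the highest for Sgk1 in all but alveolar type 2 cells, with 733 CPM in general capillary cells.

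Sgk1 spans chr10:21882184-21999903 on the plus strand and has 6 RefSeq start windows, of which 1 held the relaxed glucocorticoid element, in capitals. It is shown because Mt1 and Sgk1 were the only members with this element in a window.
Sgk1, chr10:21993640-21993889, plus strand: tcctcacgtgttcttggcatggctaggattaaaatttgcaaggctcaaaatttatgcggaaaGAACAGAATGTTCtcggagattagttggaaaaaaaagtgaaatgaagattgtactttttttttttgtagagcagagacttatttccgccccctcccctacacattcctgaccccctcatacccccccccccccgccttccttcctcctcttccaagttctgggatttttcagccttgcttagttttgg
The same window also held an E-box (CACGTG, the site of the clock factors, found in 6.021% of windows), as did 1 of 2 windows of Per1 and the window of Fkbp5. For Zbtb16 no window was used.

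Hif3a had the fewest UMIs of the members, and its sums passed the filter on low counts in 2 of 9 classes. In alveolar type 2 cells it measured 2.46, 2.60 and 0.338 CPM in the Controls (8, 9 and 1 UMIs) against 6.18, 14.3 and 11.1 in the AML libraries (18, 36 and 43 UMIs). The groups did not overlap, and Hif3a rose by 2.48 ± 0.45 on the log2 scale (edgeR adjusted p = 0.00484). It was the only one of the 9 calls that held without each library in turn, with adjusted p-values of at most 0.0422. In general capillary cells it measured 1.84, 1.38 and 0.507 CPM (12, 11 and 3 UMIs) against 3.92, 3.94 and 8.62 (23, 33 and 68 UMIs), again with no overlap (log2 change 2.12 ± 0.49, edgeR adjusted p = 0.0409). That call was lost without Control 1 (adjusted p = 0.137), Control 2 (0.0826), Control 3 (0.114), AML 2 (0.057) or AML 3 (0.171). With cells set to equal numbers per library Hif3a had too few UMIs to test in either class.

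Where its counts were too low to test, Hif3a had 0 to 3 UMIs per Control sum in aerocytes, arterial, venous and ciliated cells. AML 3 gave 11 UMIs in aerocytes and 11 in venous cells, where the Controls gave 1, 3 and 0 and 0, 0 and 1. In alveolar fibroblasts, the class with the highest Control mean, it lay at 11.2, 11.4 and 9.63 CPM against 4.69, 23.9 and 13.9, with AML 1 below all Controls. Smooth muscle measured 12.6, 3.52 and 10.4 against 11.3, 62.4 and 20.3.

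Sult1a1, the sulfotransferase, did not pass in any class, and came nearest in arterial cells. There it measured 80.4, 197 and 71.3 CPM in the Controls against 357, 304 and 349 in the AML libraries. Every AML library lay above every Control and the AML values were close together, at a log2 change of 1.5 ± 0.32 (edgeR adjusted p = 0.064). Without Control 2 the adjusted p was 0.00314, at 2.15. Unlike the metallothioneins it was highest in AML 1 there. Alveolar type 2 cells measured 75.3, 112 and 64.1 CPM against 134, 131 and 112 (0.58 ± 0.20, edgeR adjusted p = 0.0975, and 0.0194 without Control 2), and smooth muscle 14.7, 35.2 and 24.3 against 56.3, 48.0 and 61.0 (1.14 ± 0.40, edgeR adjusted p = 0.253). Control 3 was its lowest library in 7 of the 9 classes. In the Controls general capillary, arterial, alveolar type 2, venous and alveolar fibroblast sums (133 to 74.8 plain CPM) overlapped from neighbour to neighbour, above smooth muscle, aerocytes, alveolar duct myofibroblasts and ciliated cells (23.7 to 6.24).

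**Figure D5:**
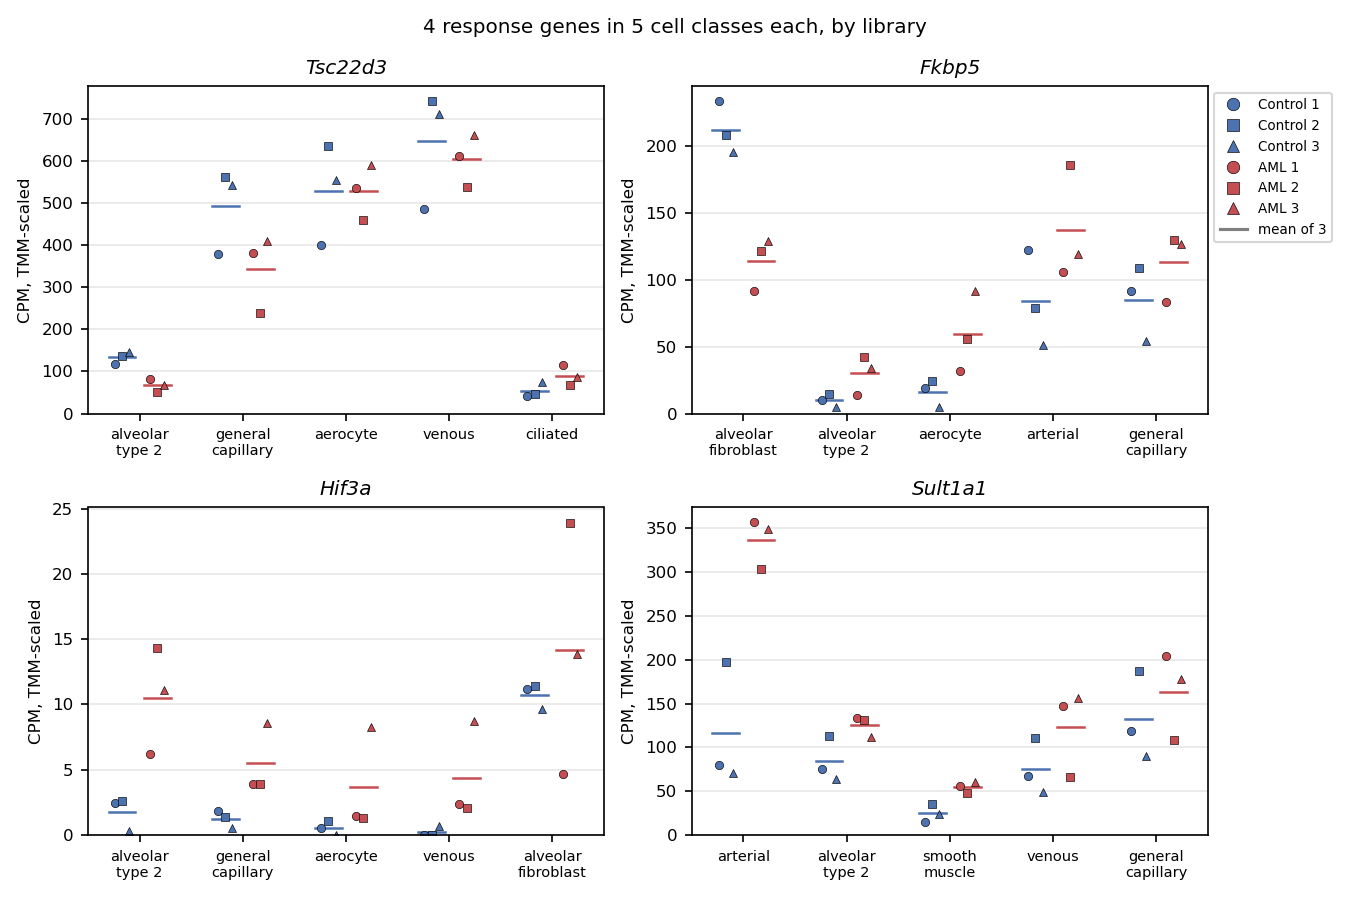
Tsc22d3, Fkbp5, Hif3a and Sult1a1 in CPM in 5 cell classes each, 1 point per library, with bars at the mean of 3 libraries. In the first class of the panels of Tsc22d3, Fkbp5 and Hif3a the groups are apart and the gene passed; in arterial cells Sult1a1 is apart, at 304 to 357 CPM against 71.3 to 197, and did not pass.

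Whether a class differed from the others in its AML effect was tested on the difference between its log2 values and the mean of the other 8 classes in the same library (limma, adjusted over the 2911 genes tested in every class, which include Tsc22d3, Fkbp5, Per1, Klf9 and Mt1). Alveolar fibroblasts passed for Fkbp5, whose effect was 1.53 ± 0.18 lower on the log2 scale than that of the other classes, and for Mt1, whose effect was lower by 1.40 ± 0.16 (both adjusted p = 1.78e-06, where 3.02% of genes passed). The Mt1 difference was not particular to them. It was -1.42 ± 0.60 in ciliated and -1.28 ± 0.87 in alveolar type 2 cells, which did not pass (limma adjusted p = 0.485 and 0.529). The mean of the other classes took in venous cells, aerocytes and general capillary cells, with Mt1 log2 changes of 4.69, 5.91 and 5.98. Aerocytes had a larger effect on Mt1, by 2.67 ± 0.46 (limma adjusted p = 0.00301, 3.16% of genes), and alveolar type 2 cells a more negative one on Tsc22d3, by -0.88 ± 0.12 (limma adjusted p = 0.000714, 4.33% of genes). General capillary cells had a difference of Mt1 of like size but wider error, 2.52 ± 0.998, which did not pass (limma adjusted p = 0.274). Per1 and Klf9 passed in no class. No member passed in alveolar duct myofibroblasts (1.03% of genes), arterial (0.515%), ciliated (0.584%), general capillary (3.23%), smooth muscle (0%) or venous cells (0.103%). The calls in alveolar fibroblasts and alveolar type 2 cells held without each library in turn, and that of aerocytes had an adjusted p of 0.0508 without Control 1. A version adjusted over all genes tested in the class itself, chosen after seeing the data, added 3 pairs. These were Mt2 in alveolar fibroblasts (-1.79, limma adjusted p = 0.000159), Sult1a1 in arterial cells (1.17, limma adjusted p = 0.00716) and Zbtb16 in general capillary cells (-0.51, limma adjusted p = 0.0424), where 2.81%, 1.09% and 2.74% of genes passed. Their mean of the other classes took in classes with too few UMIs of the gene to test. For Mt2 these were aerocytes and venous cells, for Sult1a1 alveolar duct myofibroblasts and ciliated cells, and for Zbtb16 ciliated cells. In the remaining classes this version passed 2.36% of genes in aerocytes, 0.79% in alveolar duct myofibroblasts, 1.89% in alveolar type 2 cells, 0.572% in ciliated cells, 0.0384% in smooth muscle and 0.0789% in venous cells.

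The receptor itself differed little. Nr3c1 measured 279, 250 and 263 CPM against 250, 232 and 222 in general capillary cells (log2 change -0.17 ± 0.17, edgeR adjusted p = 0.569), and its log2 changes in the other classes lay between -0.36 and -0.14, none past the threshold. Of the list of the receptor and its chaperones, 1 of 124 gene and class pairs was higher and 7 were lower, which is 6.45% against 2.12% of all genes weighted by class in the same way. The median log2 change of the list was between -0.38 and -0.15 over the classes, while that of all tested genes was between -0.01 and 0.01. Hsp90ab1, the abundant Hsp90 that folds the receptor, fell in aerocytes, alveolar fibroblasts, alveolar type 2 cells and ciliated cells. In alveolar fibroblasts it measured 1558, 1419 and 1462 CPM against 772, 545 and 662 (-1.17 ± 0.26, edgeR adjusted p = 0.0152). Stip1 and Fkbp4, which encode partners of Hsp90, gave the remaining 3. The pair that was higher was Hsd11b1, the enzyme that regenerates active glucocorticoid inside cells. In alveolar fibroblasts it measured 946, 1353 and 1067 CPM against 2279, 3666 and 2648 (1.35 ± 0.29, edgeR adjusted p = 0.0114), in the class where Fkbp5 fell.

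Of the list of immediate early and heat shock genes, which also react to tissue dissociation, 23 of 160 pairs were lower and 3 higher (16.2%, against 2.08% of all genes), with class medians from -1.07 to 0.20. Hspa1a, an inducible Hsp70, measured 77.0, 41.7 and 87.9 CPM against 12.8, 9.92 and 9 in general capillary cells (-2.71 ± 0.28, edgeR adjusted p = 0.0023), and it fell in 7 classes. The part of cell handling in the levels of the members was not tested.

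Other genes known to be induced by glucocorticoids gave 6 pairs higher and 1 lower among 189, with class medians from 0.08 to 0.41. That was 3.7%, against a weighted mean of 2.13% of all genes, and within the range of their shares in single classes. At an unadjusted p below 0.05 (edgeR), 62 of the 189 were found (32.8%, against 15.2% of all genes with the same weights). Rgcc, a cell cycle regulator, rose in alveolar fibroblasts from 62.8, 62.7 and 53.0 to 207, 352 and 197 CPM (2.09 ± 0.28, edgeR adjusted p = 0.000444) and in alveolar type 2 cells (1.09 ± 0.26, 0.0246 with the same adjustment). Angptl4, an inhibitor of lipoprotein lipase, rose in alveolar type 2 cells from 5.53, 9.52 and 6.75 to 17.5, 33.8 and 32.7 CPM (1.93 ± 0.27, edgeR adjusted p = 0.000755) and in alveolar duct myofibroblasts (1.5 ± 0.34, 0.0279). In aerocytes Cebpd, the gene of a C/EBP transcription factor, and Fam107a rose (0.96 ± 0.23, edgeR adjusted p = 0.0333, and 1.93 ± 0.44, 0.0408). Errfi1, an inhibitor of the EGF receptor, was the one that fell, in general capillary cells (-0.88 ± 0.17, edgeR adjusted p = 0.0288). Rgcc and Angptl4 thus rose in alveolar type 2 cells, where Tsc22d3 fell, and Rgcc rose in alveolar fibroblasts, where Fkbp5 fell.

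The clock genes other than Per1 gave 6 pairs higher and 1 lower among 97 (7.22%, against 2.24% of all genes), with class medians from -0.37 to 0.46. Cry1, a repressor of the clock, rose in general capillary cells from 3.52, 6.76 and 6.09 to 14.8, 32.7 and 26.2 CPM (2.17 ± 0.32, edgeR adjusted p = 0.013), in alveolar type 2 cells and in alveolar fibroblasts. Per2 rose in general capillary cells (1.57 ± 0.34, edgeR adjusted p = 0.0348), and Bhlhe41 and Ciart in alveolar type 2 cells (1.98 ± 0.39 and 1.24 ± 0.34). Nr1d1, a nuclear receptor of the clock, fell in alveolar type 2 cells from 79.6, 69.8 and 82.4 to 50.8, 33.4 and 54.3 CPM (-0.73 ± 0.18, edgeR adjusted p = 0.0291). The hour at which lungs were taken is not given in the sources used here, and its part in these levels was not tested.

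Of the zinc-handling genes 1 of 57 pairs passed (1.75%, against 2.41% of all genes), and 7 were below an unadjusted p of 0.05 (12.3%, against 16.1%). The 1 was Slc30a7, a zinc carrier of the Golgi, which fell in alveolar type 2 cells from 33.5, 27.1 and 28.0 to 20.6, 13.1 and 19.6 CPM (-0.72 ± 0.20, edgeR adjusted p = 0.0451). Class medians of this list ran from -0.35 to 0.25. None of the 53 pairs of the hypoxia-inducible factor list other than Hif3a passed by edgeR, where 2.18% of all genes did, 5 of the 53 being below an unadjusted p of 0.05 (9.43%, against 15.2%), with class medians from -0.13 to 0.22. Of the sulfotransferase list 2 of 11 pairs passed (18.2%, against 2.37% of all genes), both higher: Sult1d1 in ciliated cells, from 123, 145 and 115 to 401, 420 and 300 CPM (1.54 ± 0.21, edgeR adjusted p = 2.66e-06), and Papss2, which makes the sulfate donor, in alveolar fibroblasts (1.12 ± 0.26, edgeR adjusted p = 0.0171).

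Across all 94 class-by-library sums with at least 20 cells, the genes most like each member in log2(CPM + 1) were described by Pearson's r. Zbtb16 was most like Cebpd (r = 0.891) and Dlc1 (0.891), and Klf9 most like Acadsb (0.904), with Cebpd also near (0.88). Mt1 and Mt2 were both most like Cd63 (0.778 and 0.741), Sgk1 like Ywhab (0.838), Sult1a1 like Tns1 (0.784), Tsc22d3 like Tmem50a (0.745), Fkbp5 like Gm22146 (0.722) and Per1 like Jade2 (0.698). Hif3a was under 10 CPM and not ranked. These sums share libraries, depth and cell classes.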

How the data were processed

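The authors' deposited values were unnormalised UMI counts of each gene in each barcode, made with Cell Ranger on mm10 (version 7.0.0 per the submitters' processing notes, 6.0.1 per the file headers), from 10x 3' v3.1 libraries per the labels' protocols. The members and gene lists were chosen with earlier results of these data known.

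Barcodes with fewer than 500 genes (3415) or over 15% mitochondrial UMIs (461) were removed. The top Scrublet scores, 0.8% per 1000 cells, were removed as doublets (895 cells, 3.63%). Leiden clustering had a resolution of 1.0 (scanpy 1.11.5; 2000 variable genes, 30 components, 15 neighbours). A cluster took the class whose markers had the highest mean score (standardised over clusters), at least 3 of them detected. It stayed unnamed where markers of another class led its top 10 genes, or where UMIs were few and no marker was among them. A name did not need a marker of the class among the top 10 genes. UMIs were summed per class and library and tested with edgeR 4.0.16 (quasi-likelihood, TMM, filterByExpr), with limma 3.58.1 (prior count 2) for differences between classes, both checked on simulated data. Haematopoietic classes were not compared, because leukaemia cells were added to the AML suspensions only. Among them the platelet class also had at least 20 cells in every library. All 10 members were named, and of the lists the genes past the threshold, beside Nr3c1. Replicate numbers did not pair libraries: correlations of same-numbered deviations ran from -0.17 to 0.107. Alternatives used other scaling, no filter, DESeq2 1.42.0, a replicate block, other clusterings and single libraries left out.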

Additional observations from a re-analysis of the deposited data

Results flagged for a closer look

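The AML effect differed between a cell class and the others by the limma test of the difference itself in 4 member and class pairs adjusted over the 2911 genes tested in every class. They were Mt1 in aerocytes (2.67 ± 0.46 on the log2 scale, limma adjusted p = 0.00301), Fkbp5 in alveolar fibroblasts (-1.53 ± 0.18), Mt1 in alveolar fibroblasts (-1.40 ± 0.16, both limma adjusted p = 1.78e-06) and Tsc22d3 in alveolar type 2 cells (-0.88 ± 0.12, limma adjusted p = 0.000714). Adjusted over the genes of the class itself, a version chosen after seeing the data, 3 more did. These were Mt2 in alveolar fibroblasts (-1.79 ± 0.20, limma adjusted p = 0.000159), Sult1a1 in arterial cells (1.17 ± 0.21, 0.00716) and Zbtb16 in general capillary cells (-0.51 ± 0.12, 0.0424). For these 3 the mean of the other classes took in classes with too few UMIs of the gene to test. The Mt1 difference of alveolar fibroblasts was of like size in ciliated and alveolar type 2 cells, and that of aerocytes in general capillary cells, none of which passed.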

How the results depend on the processing

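No log2 change among the 31 pairs at an unadjusted p below 0.05 turned its sign under any alternative run. The 6 calls higher in AML became 17 with no low count filter, 11 with DESeq2 and 15 with the replicate block, and ranged from 1 to 21 with single libraries left out. The 3 lower calls became 6 with no filter and 1 with doublets kept, and ranged from 0 to 2 with single libraries left out. Of the 9 calls, 8 remained without the filter, 8 with DESeq2, 6 with the replicate block and 4 with doublets kept. At resolution 0.5 there were 6, with the members left out of clustering 6 and with equal cells 5. With clusters named by marker score alone 7 remained. The 2 lost there were Hif3a and Zbtb16 in general capillary cells, the only calls of that class. Replicate numbers did not pair the libraries, so the block is a hint only. The difference between classes passed for 7 pairs over the genes of the class itself, and for 3 to 9 pairs with single libraries left out, of which 7 without Control 2 and 9 without AML 1.

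Genes past the threshold with no filter numbered 603 in aerocytes (294 with it), 184 in alveolar duct myofibroblasts (45), 558 in alveolar fibroblasts (235), 911 in alveolar type 2 cells (433), 155 in arterial cells (19), 84 in ciliated cells (42), 1358 in general capillary cells (397), 125 in smooth muscle (56) and 321 in venous cells (40). With single libraries left out they ranged, in that order of classes, over 55 to 364, 9 to 104, 88 to 304, 60 to 751, 3 to 105, 22 to 166, 2 to 1269, 17 to 70 and 0 to 361. Other settings that moved the number by over 1.5 times were DESeq2 (41 in arterial, 884 in general capillary and 124 in venous cells), the replicate block (154 in alveolar duct myofibroblasts, 720 in alveolar type 2, 59 in arterial and 66 in ciliated cells), doublets kept (12 in alveolar duct myofibroblasts, 47 in alveolar fibroblasts, 121 in ciliated cells and 24 in smooth muscle), resolution 0.5 (94 in alveolar fibroblasts, 372 in arterial and 17 in venous cells) and equal cells (93 in alveolar fibroblasts, 282 in alveolar type 2, 7 in arterial cells and 33 in smooth muscle). Leaving out clusters with over 80% of their cells from 1 library changed nothing, because no named cluster reached that share. General capillary clusters 11 (68.56% of cells from AML 2) and 10 (63.18% from AML 3) stayed in, so this setting did not test their part.

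Cell numbers limit the precision in the small classes: alveolar duct myofibroblasts had 22 to 107 cells per library and ciliated cells 23 to 59, and Hif3a had too few UMIs to test in 7 of 9 classes.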
